A study of Mus musculus with 20 samples.

Results

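Periplakin (Ppl) and 8 other genes of desmosomes and of the plakin family were followed across 20 mouse tumors. The 9 genes (Ppl, Evpl, Dsp, Jup, Pkp1, Pkp2, Pkp3, Dsg2 and Dsc2) were taken from the 35226 genes of the count table. Ppl was chosen on its rise in cisplatin-treated tumors, so its cisplatin values are a description and carry no test. The other 8 were taken by their function, with earlier results of these data known, to see whether they moved with Ppl.

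Each tumor was grown under the skin from LLC1, a Lewis lung carcinoma cell line, in male C57BL/6J mice of 8 to 10 weeks, which have an intact immune system. Mice were assigned to treatment at a tumor volume of 100 mm3. Vehicle tumors received the solvents, KW6002 tumors the adenosine receptor antagonist istradefylline, cisplatin tumors the platinum drug, and cotreated tumors both drugs (n = 5 per group). No group differed in genotype, and all tumors came from a single transplanted line and held host cells besides tumor cells. The dosing schedule of these mice is not given in the sources used here. Each tumor gave 1 poly(A) library with a total of 28371364 to 40965731 counts, and levels are given as CPM, the share of a library's counts on a per-million scale.

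Desmosomes are spot-like junctions that tie the keratin filaments of neighbouring epithelial cells together, and heart muscle also has them. Desmogleins and desmocollins span the membrane, plakoglobin (Jup) and the plakophilins bind their tails, and desmoplakin (Dsp), a plakin, links this plaque to intermediate filaments. Periplakin and envoplakin (Evpl) are plakins of stratified epithelium that pair with each other and become part of the cornified envelope.

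Ppl was low in tumors that had not received cisplatin and high in all that had. In vehicle tumors it measured 4.14, 7.21, 6.17, 5.01 and 5.45 CPM, and in KW6002 tumors 4.63, 5.64, 6.84, 5.92 and 6.76 CPM (replicates 1 to 5). Cisplatin tumors had 20.97, 26.7, 25.9, 36.4 and 41.1 CPM, and cotreated tumors 35.2, 65.2, 50.9, 43.5 and 58.5 CPM. The lowest tumor of either cisplatin arm thus lay well above the highest tumor without cisplatin, while the 2 cisplatin arms overlapped with each other. Group means were 5.60 ± 1.16 CPM with vehicle, 5.96 ± 0.91 with KW6002, 30.2 ± 8.27 with cisplatin and 50.7 ± 11.9 with cotreatment (SD, n = 5). The fitted log2 fold change, the difference between groups on the log2 scale, was 2.43 for cisplatin against vehicle, 3.18 for cotreatment against vehicle and 3.09 for cotreatment against KW6002. The first pair shares the vehicle tumors and the last pair the cotreated tumors. The gene lies on chromosome 16, at chr16:5086291-5132421 of GRCm38 on the minus strand (ENSMUSG00000039457).

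The log2 difference of Ppl between KW6002 and vehicle tumors was 0.09 (SE 0.20, 95% interval -0.33 to 0.51). It is given without a test, since the vehicle tumors also entered the choice of the gene. With cisplatin on board, cotreated tumors were 0.74 higher than cisplatin tumors on the log2 scale, given here as a description. The numbered library codes in the labels fell into a lower and a higher range, here called earlier and later. The earlier range held 1 vehicle, 2 KW6002, 2 cisplatin and 3 cotreated tumors. Within the earlier codes, cisplatin tumors had 20.97 and 26.7 CPM and cotreated tumors 35.2, 65.2 and 50.9 CPM. Within the later codes, cisplatin tumors had 25.9, 36.4 and 41.1 CPM and cotreated tumors 43.5 and 58.5 CPM. Inside each range the cotreated tumors thus lay above the cisplatin tumors, with 2 or 3 tumors a group. The log2 difference was 1.09 in the earlier and 0.57 in the later codes, both given without a test.

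**Figure D1:**
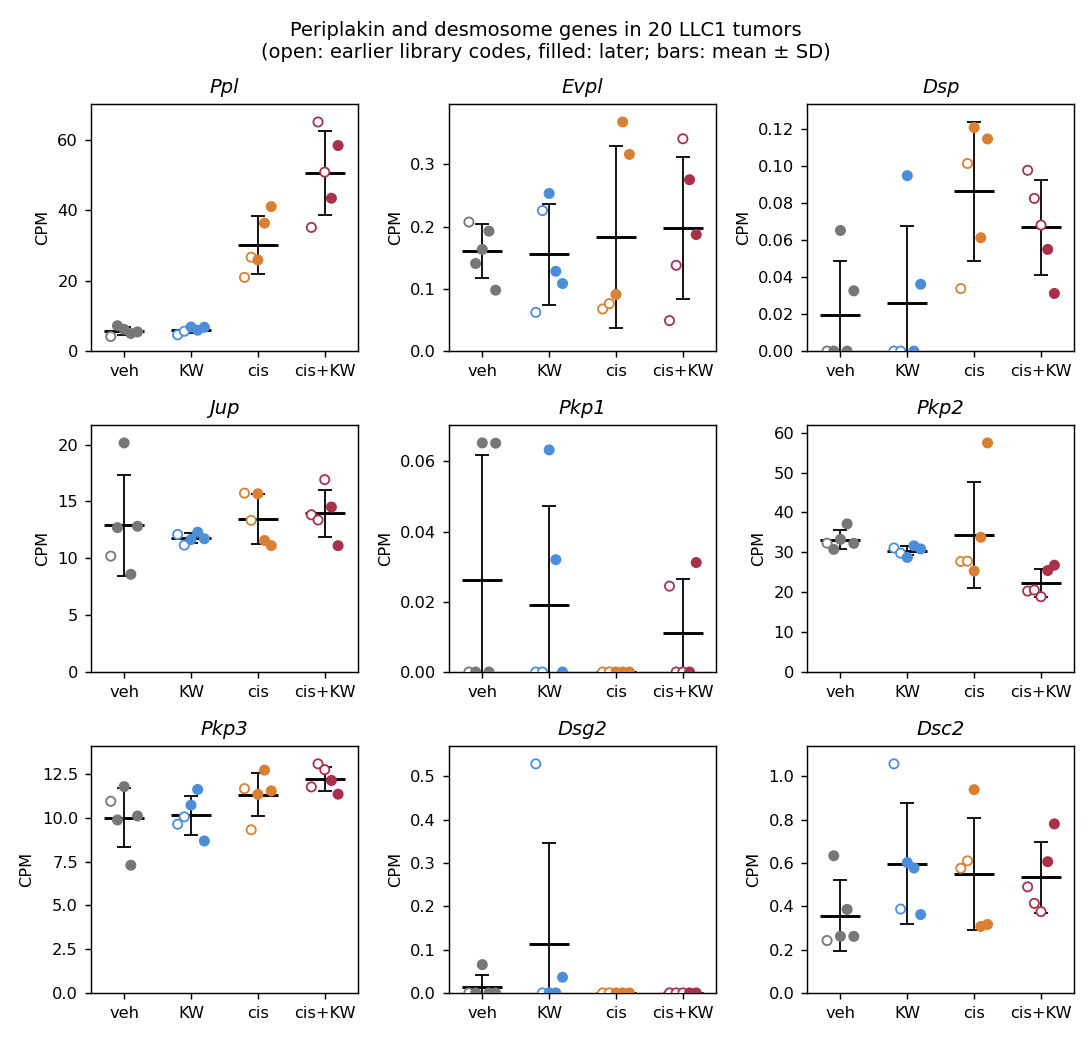
CPM of the 9 genes in each of 20 LLC1 tumors, 1 panel per gene with its own axis from 0, for vehicle (veh), KW6002 (KW), cisplatin (cis) and cotreatment (cis+KW). Open points are earlier and filled points later library codes, and bars show the mean ± SD of 5 tumors. Ppl rises from about 4.14 to 7.21 CPM in vehicle to 35.2 to 65.2 CPM in cotreated tumors, while the panels of Evpl, Dsp, Pkp1 and Dsg2 stay under 0.6 CPM.

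Of the 8 other members, 4 were expressed at a level that could be tested. In all, 5 passed the filter on low counts (Ppl, Jup, Pkp2, Pkp3 and Dsc2) and 4 did not (Evpl, Dsp, Pkp1 and Dsg2). A gene was called changed at an adjusted p under 0.05 (edgeR quasi-likelihood test, Benjamini-Hochberg over 16665 genes) and an absolute log2 fold change of at least 0.32. Leaving Ppl aside, 0 of 4 tested members were called with cisplatin alone, where 6.01% of all tested genes were called higher and 4.57% lower. These 4 had 0 unadjusted p values under 0.05 and 0 calls by DESeq2 in that comparison. With cotreatment against vehicle, 0 of the 4 were called higher and 1, Pkp2, lower, beside 13.1% and 10.4% of all genes. Against KW6002 the count was again 0 higher and 1 lower, Pkp2, beside 12.6% and 10.7%. In the last of these comparisons the median log2 difference of the 4 genes was 0.04, and in the 2 comparisons with vehicle it was 0.12 (cisplatin) and 0.20 (cotreatment). The medians over all tested genes were 0.00 for cisplatin and -0.02 for cotreatment against vehicle, and -0.01 against KW6002.

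Desmoplakin, the plakin that every desmosome needs, was close to absent. It had 0, 0, 2, 0 and 1 counts in the vehicle tumors and 0, 0, 3, 0 and 1 in the KW6002 tumors. Cisplatin tumors had 1, 4, 4, 2 and 4 counts and cotreated tumors 4, 3, 2, 2 and 1. Each of the 10 cisplatin-treated tumors thus had at least 1 count, but none had more than 4. Fitted without the low-count filter, over 35226 genes, the log2 difference was 1.98 for cisplatin (unadjusted p = 0.0266, edgeR adjusted p = 0.212) and 1.64 for cotreatment (unadjusted p = 0.0703, adjusted p = 0.256), both against vehicle. Neither passed the test at this depth, at which 3 counts correspond to 0.0734 to 0.108 CPM.

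Envoplakin, the partner of periplakin, did not rise with it to a measurable level. It had 3 to 7 counts per vehicle tumor, 2 to 8 with KW6002, 2 to 12 with cisplatin and 2 to 10 with cotreatment. The group means were 0.1603 ± 0.0434, 0.156 ± 0.0808, 0.184 ± 0.146 and 0.198 ± 0.114 CPM (SD, n = 5), and all 4 groups overlapped. Without the filter its log2 difference was 0.19 for cisplatin (edgeR adjusted p = 0.943) and 0.28 for cotreatment (adjusted p = 0.820).

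Of the cytoplasmic plaque proteins, Jup, Pkp2 and Pkp3 were well measured. Plakoglobin (Jup), which binds both desmosomal and classical cadherins, measured 10.2, 12.7, 20.1, 8.59 and 12.8 CPM in vehicle tumors and 12.1, 11.2, 11.6, 12.3 and 11.7 CPM with KW6002. It measured 15.7, 13.3, 15.7, 11.6 and 11.1 CPM with cisplatin and 13.8, 13.4, 16.9, 14.5 and 11.1 CPM with cotreatment. The 4 groups overlapped, and vehicle replicate 3 held the highest value of all 20 tumors. The log2 difference from vehicle was 0.07 with cisplatin (95% interval -0.28 to 0.41, edgeR adjusted p = 0.827) and 0.11 with cotreatment (-0.23 to 0.46, adjusted p = 0.631).

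Plakophilin 3 (Pkp3), a plaque protein found in most epithelia, was not called in any comparison. The means were 10.0 ± 1.69 CPM with vehicle, 10.1 ± 1.11 with KW6002, 11.3 ± 1.24 with cisplatin and 12.2 ± 0.707 with cotreatment (SD, n = 5). Its log2 difference from vehicle was 0.18 with cisplatin (SE 0.11, edgeR adjusted p = 0.281) and 0.29 with cotreatment (SE 0.11, adjusted p = 0.0464), the latter below the fold limit of 0.32. Against KW6002 the cotreatment difference was 0.27 (adjusted p = 0.0653). The cisplatin difference from vehicle ran from 0.08 to 0.25 over the fits that left out 1 tumor. With 1 tumor left out, the difference between cotreatment and vehicle ran from 0.19 without vehicle replicate 4 to 0.37 without vehicle replicate 3, and it was called without vehicle replicate 1 or 3 or cotreatment replicate 5. The cotreated tumors, at 11.4 to 13.1 CPM, overlapped with the vehicle tumors, at 7.29 to 11.8 CPM.

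Plakophilin 2 (Pkp2), the plakophilin of heart muscle and of simple epithelium, went the other way. Vehicle tumors had 32.3, 30.7, 33.2, 37.1 and 32.2 CPM and KW6002 tumors 31.1, 29.8, 28.7, 31.6 and 30.8 CPM. Cotreated tumors had 20.3, 20.6, 18.9, 25.4 and 26.8 CPM, so that no cotreated tumor reached the lowest value of either group without cisplatin. Pkp2 fell with cotreatment by 0.57 on the log2 scale against vehicle (SE 0.17, edgeR adjusted p = 0.0118) and by 0.44 against KW6002 (SE 0.17, adjusted p = 0.0444). Cotreated tumors of the earlier codes had 18.9 to 20.6 CPM and those of the later codes 25.4 to 26.8 CPM. In the later codes alone the log2 difference was -0.33 from vehicle (adjusted p = 0.398) and -0.21 from KW6002 (adjusted p = 0.664).

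Cisplatin tumors had Pkp2 at 27.7, 27.8, 25.3, 33.8 and 57.4 CPM, with replicate 5 far above the rest of its group and of all 20 tumors. The log2 difference of cisplatin from vehicle was 0.05 (95% interval -0.29 to 0.40, edgeR adjusted p = 0.856), and without that tumor it was -0.20. From cisplatin to cotreated tumors Pkp2 fell by 0.62 on the log2 scale (SE 0.17, edgeR adjusted p = 0.0312), and the 2 groups overlapped. Without cisplatin replicate 5 the difference was -0.35 (adjusted p = 0.0475). In this comparison 1 of the 4 tested members other than Ppl was called lower and 0 higher, beside 1.71% and 2.29% of all genes. This call was lost in the fit without cisplatin replicate 4 or without cotreatment replicate 1, 2 or 3, with adjusted p up to 0.0977.

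The call of Pkp2 against KW6002 rested close to the threshold. It was lost in 13 of 20 fits that left out 1 tumor, those without any of the 5 KW6002 tumors, cotreatment replicates 1 to 3, vehicle replicates 1, 2, 3 and 5, or cisplatin replicate 4. The adjusted p of these 20 fits ran from 0.00114 to 0.115. The call against vehicle held in all 20, with adjusted p of 0.000126 to 0.0398. Without the low-count filter the call against KW6002 was lost as well (-0.43, edgeR adjusted p = 0.125), as in later codes alone. Tested against the fold limit itself (glmTreat), which asks for a change beyond 0.32, Pkp2 was not called against vehicle (adjusted p = 0.158), KW6002 (adjusted p = 0.415) or cisplatin (adjusted p = 0.593).

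Plakophilin 1 (Pkp1), the plakophilin of stratified epithelium, was at or near 0 counts everywhere. The 5 cisplatin tumors had 0 counts each, and no tumor of another group had more than 2.

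The desmosomal cadherins were low. Desmocollin 2 (Dsc2), the most widely expressed desmocollin, had 7 to 18 counts per vehicle tumor, 10 to 34 with KW6002, 10 to 31 with cisplatin and 11 to 25 with cotreatment. The group means were 0.356 ± 0.165, 0.597 ± 0.279, 0.549 ± 0.259 and 0.533 ± 0.164 CPM (SD, n = 5). All groups overlapped, and the log2 difference from vehicle was 0.62 with cisplatin (95% interval -0.14 to 1.38, edgeR adjusted p = 0.258) and 0.58 with cotreatment (-0.19 to 1.34, adjusted p = 0.235). These intervals are wide. With 1 tumor left out the differences ran from 0.35 to 0.93 (cisplatin) and from 0.42 to 0.88 (cotreatment).

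Desmoglein 2 (Dsg2), the desmoglein of simple epithelium and heart, had 0 counts in all 10 cisplatin-treated tumors. Vehicle replicate 3 had 2 counts and KW6002 replicate 5 had 1. KW6002 replicate 1 stood apart with 17 counts. The same tumor held the highest Dsc2 (34 counts) and the highest Dsc3 (43 counts) of all 20 tumors. Dsc2, Dsc3 and Dsg2 lie in 1 cluster of desmosomal cadherin genes on chromosome 18, where Dsc3 and Dsg2 mark a span of 644 kb. Without KW6002 replicate 1, the log2 difference of Dsc2 between cotreatment and KW6002 went from -0.17 to 0.14, and neither value was called.

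With KW6002 alone, 0 of the 4 tested members other than Ppl and 0.0% of all genes were called by edgeR, as also by DESeq2. None of the 4 had an unadjusted p under 0.05, and 339 of 16665 genes did. The largest difference among the tested members was that of Dsc2, at 0.75 on the log2 scale (95% interval -0.02 to 1.51, edgeR adjusted p = 1.00), which became 0.44 without KW6002 replicate 1. The interaction, which asks whether the effect of KW6002 differed with and without cisplatin, called 0 of the 4 members other than Ppl, 1 of which (Pkp2) had an unadjusted p under 0.05, beside 0.066% of all genes. Its value for Pkp2 was -0.50 (SE 0.23, edgeR adjusted p = 0.401), and -0.23 without cisplatin replicate 5. DESeq2 called 0 of these 4 as well.

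Divided by exon length, the members fell into a measurable and a near-absent set. In vehicle tumors Pkp2 came first at 6.18 ± 0.450 CPM per kb, followed by Pkp3 at 2.77 ± 0.468, Jup at 2.00 ± 0.688 and Ppl at 0.812 ± 0.169 (SD, n = 5). Pkp3 and Jup did not differ beyond their spread, whereas Pkp2 lay above and Ppl below both in every tumor. Dsc2 followed at 0.0675 ± 0.0312 CPM per kb, and Evpl, Pkp1, Dsp and Dsg2 were at 0.0251 or less.

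In cotreated tumors this order of levels changed at the top. Ppl led at 7.35 ± 1.72 CPM per kb, with a lowest tumor of 5.10, just above the highest tumor for Pkp2 at 4.99. The lengths join all annotated exons of a gene and need not match the transcripts expressed, so this narrow gap depends on them. Pkp2 had 4.18 ± 0.651, Pkp3 3.38 ± 0.195 and Jup 2.17 ± 0.325 CPM per kb, and the ranges of Pkp2 and Pkp3 overlapped. With cisplatin alone Ppl, at 4.38 ± 1.20 CPM per kb, overlapped with both Pkp2 and Pkp3.

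**Figure D2:**
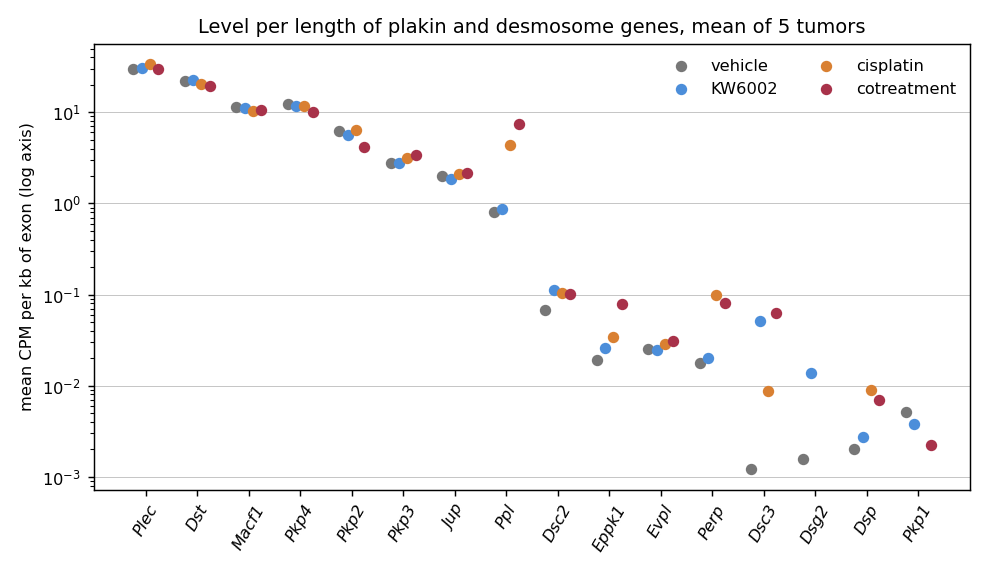
Mean CPM per kb of exon (log axis) of the 4 other plakins, the members and 3 more desmosome genes, each point the mean of 5 tumors in 1 group. A group at 0 counts has no point. Ppl moves from 0.812 in vehicle past Jup, Pkp3 and Pkp2 to 7.35 in cotreated tumors, and Dsc2, Eppk1, Evpl, Dsp, Dsg2 and Pkp1 lie below 0.2 in every group.

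The remaining desmosome genes were mostly below the filter. Of 9 further genes listed, 7 were in the table, and Dsg1b and Dsg4 are not analysed here. Of these 7 only Pkp4, a plakophilin relative also found at adherens junctions, was tested. It measured 69.7 ± 3.70 CPM with vehicle, 67.5 ± 3.999 with cisplatin and 57.3 ± 2.49 with cotreatment (SD, n = 5), and the cotreated tumors did not overlap with the vehicle tumors. Its log2 difference from vehicle, -0.28 with cotreatment (edgeR adjusted p = 0.000586), did not reach the fold limit. Perp, a p53 target that is a component of desmosomes, had 0 to 4 counts in tumors without cisplatin, 2 to 12 with cisplatin and 2 to 13 with cotreatment. Without the filter its log2 difference from vehicle was 2.47 with cisplatin (adjusted p = 0.0522) and 2.16 with cotreatment (adjusted p = 0.0625). Dsc3 had 0 to 1 counts in vehicle tumors, 0 to 43 with KW6002 (43 in replicate 1), 0 to 5 with cisplatin and 3 to 22 in cotreated tumors. Without the filter its log2 difference with cotreatment was 5.04 against vehicle (edgeR adjusted p = 0.0654) and 0.26 against KW6002 (adjusted p = 0.971).

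Of the other 4 plakins, epiplakin alone was called with cotreatment against vehicle, where 13.1% of all genes were called higher and 10.4% lower, so that the count says little about the family. Epiplakin (Eppk1), which binds keratins and consists of plakin repeats, had 6, 7, 12, 5 and 6 counts in vehicle tumors and 7, 12, 6, 14 and 10 with KW6002. Cisplatin tumors had 14, 18, 16, 8 and 16 counts and cotreated tumors 35, 42, 43, 19 and 29. The cotreated tumors lay above all other tumors, at 0.523 to 1.47 CPM against at most 0.484. Eppk1 passed the low-count filter only with its counts in the cisplatin arms, and a filter of 10 counts in each tumor leaves it out. Its p values carry this selection. Eppk1 rose with cotreatment by 2.04 on the log2 scale against vehicle (SE 0.32, edgeR adjusted p = 5.49e-05) and by 1.599 against KW6002 (SE 0.31, adjusted p = 0.000405). With cisplatin alone the log2 difference was 0.85 (SE 0.34, adjusted p = 0.0891), and 0 of the 4 plakins was called (6.01% and 4.57% of all genes), with 1 unadjusted p under 0.05 and 0 calls by DESeq2. Cotreated tumors exceeded cisplatin tumors by 1.20 (adjusted p = 0.0197), a call lost without cotreatment replicate 2 or 3 (adjusted p up to 0.0743), with glmTreat (adjusted p = 0.217), when only the groups compared were fitted (adjusted p = 0.0595), and in later (adjusted p = 0.457) or earlier codes alone (adjusted p = 0.116). In later codes alone the call against KW6002 was lost too (adjusted p = 0.163).

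Eppk1 remained rare even so, at 0.0796 CPM per kb in cotreated tumors. Plectin (Plec), dystonin (Dst) and Macf1, the broadly expressed plakins that link filament systems, were at 29.6, 21.9 and 11.3 CPM per kb in vehicle tumors. Their log2 differences from vehicle ran from -0.16 to 0.18 over both cisplatin arms, and none was called. The 95% intervals of these 6 differences lay between -0.36 and 0.37. Plec overlaps with Parp10, and Eppk1 with BC024139, each on the same strand, so reads from exons that coincide cannot be told apart. None of the 9 members but Pkp1 overlaps with an annotated gene.

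**Figure D3:**
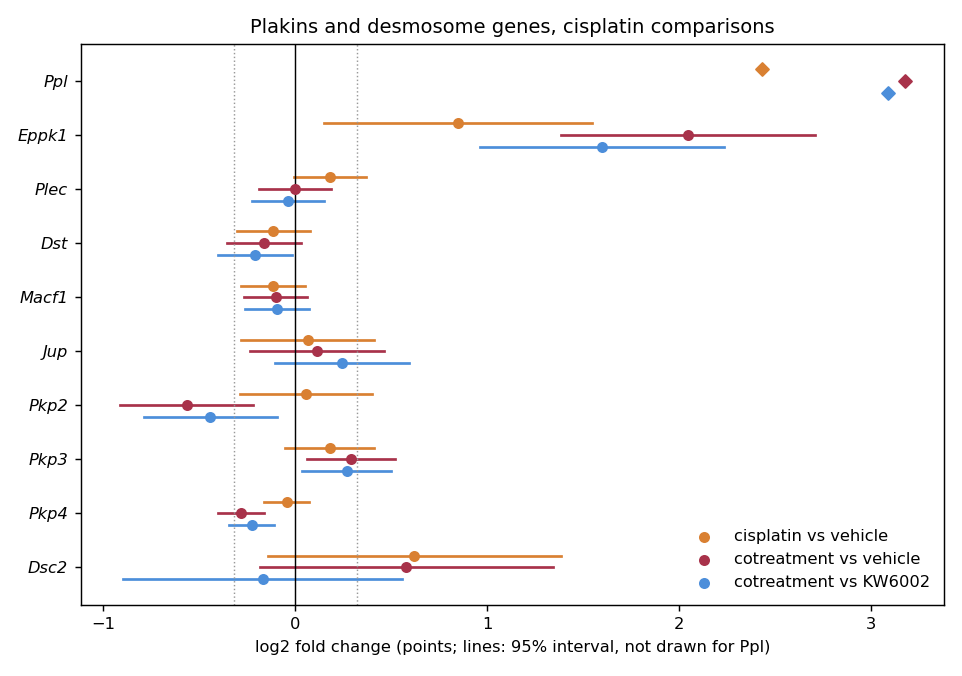
Log2 fold change of tested plakins and desmosome genes for cisplatin and cotreatment against vehicle and for cotreatment against KW6002. Lines are 95% intervals, dotted lines mark the fold limit of 0.32, and Ppl, chosen on these values, is drawn without an interval. After cotreatment against vehicle, Ppl (3.18), Eppk1 (2.04) and Dsc2 (0.58) lie right of the limit, Dsc2 with an interval that spans 0, and Pkp2 (-0.57) lies left of it.

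Periplakin and envoplakin are crosslinked into the cornified envelope. Of 10 genes of this structure listed, 9 were in the table and 3 were tested (Tgm1, Sprr1a and Cstb), too few to describe the list by its calls. None was called by edgeR with cisplatin (6.01% of all genes higher, 4.57% lower) or with cotreatment against vehicle (13.1% and 10.4%), with 0 and 1 unadjusted p values under 0.05 and 0 and 1 calls by DESeq2. Tgm1, the main crosslinking transglutaminase of epidermis, fell by 1.10 on the log2 scale from KW6002 to cotreated tumors (edgeR adjusted p = 0.0233). In that comparison 12.6% of all genes were called higher and 10.7% lower, and Tgm1 is named because it was the only edgeR call of this list.

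Desmosomes attach to intermediate filaments. Of 14 listed genes 13 were in the table and 10 tested, and 2 were called higher and 0 lower with cisplatin, and 2 higher and 2 lower with cotreatment against vehicle. Over all genes the shares were 6.01% and 4.57% with cisplatin and 13.1% and 10.4% with cotreatment, so that counts in a list of this size say little about the list. The list had a median log2 difference of 0.28 with cisplatin and -0.03 with cotreatment. Keratin 8 (Krt8), a keratin of simple epithelium, measured 128, 134, 138, 117 and 126 CPM in vehicle tumors and 170, 165, 185, 215 and 191 CPM with cisplatin. KW6002 tumors had 124, 95.2, 142, 130 and 126 CPM and cotreated tumors 180, 197, 188, 194 and 198 CPM, so that both cisplatin arms lay above both other groups. An antisense gene, Gm36026, overlaps with Krt8, and with the strand setting unknown their reads may not be separated. Krt8 rose by 0.53 on the log2 scale with cisplatin (SE 0.08, edgeR adjusted p = 0.000288) and by 0.57 with cotreatment (SE 0.08, adjusted p = 3.12e-05). With glmTreat the cisplatin call of Krt8 was lost (adjusted p = 0.0774).

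Krt18, the partner of Krt8, went from 273 ± 10.8 CPM with vehicle to 340 ± 25.3 with cisplatin and 316 ± 22.9 with cotreatment (SD, n = 5). Its log2 differences of 0.32 (edgeR adjusted p = 0.00398) and 0.21 (adjusted p = 0.0210) stayed just under and below the fold limit. Krt7, another simple keratin, was rare, at 0.218 ± 0.0937 CPM with vehicle and 0.663 ± 0.284 with cisplatin, and rose by 1.602 with cisplatin (adjusted p = 0.00391) and 1.64 with cotreatment (adjusted p = 0.00106) on the log2 scale. Krt7 passed the low-count filter only with its counts in the cisplatin arms, a selection that these p values carry. Nestin (Nes), a filament protein of progenitor cells, fell with cotreatment by 0.63 (adjusted p = 6.84e-06) and differed by -0.09 with cisplatin (adjusted p = 0.487). Lamin B1 (Lmnb1), of the nuclear lamina, fell by 0.60 with cotreatment (adjusted p = 6.86e-07). With cisplatin its log2 difference was -0.32 (adjusted p = 0.00163), just under the fold limit, and the groups did not overlap.

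In the adherens junction list, 11 of 12 genes were tested, with 0 called higher in either arm against vehicle, 2 lower with cisplatin and 1 lower with cotreatment. Over all genes 6.01% were higher and 4.57% lower with cisplatin and 13.1% and 10.4% with cotreatment, so that few calls could fall in a list of this size. Lower were Nectin2 and Cdh2 with cisplatin (-0.42, edgeR adjusted p = 0.0130, and -0.36, adjusted p = 0.0360) and Nectin2 with cotreatment (-0.73, adjusted p = 4.95e-05). E-cadherin (Cdh1), the epithelial cadherin, was low at 1.91 CPM with vehicle and 2.16 CPM with cotreatment, and was not called. The call of Cdh2, the neural cadherin, was lost in 7 of 20 fits that left out 1 tumor (adjusted p up to 0.110), those without vehicle replicate 1, 2, 4 or 5 or cisplatin replicate 3, 4 or 5. It was also lost when only the groups compared were fitted (adjusted p = 0.0910), and glmTreat lost the cisplatin calls of both Cdh2 (adjusted p = 0.930) and Nectin2 (adjusted p = 0.594).

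Among 8 tested of 14 tight junction genes, F11r, a junctional adhesion molecule, fell with cisplatin by 0.78 (edgeR adjusted p = 0.000569) and with cotreatment by 0.46 (adjusted p = 0.0101) on the log2 scale. Marveld2, which encodes tricellulin, rose with cotreatment by 0.69 (adjusted p = 0.00344). These were the calls of the list against vehicle. Over all genes 6.01% were higher and 4.57% lower with cisplatin, and 13.1% and 10.4% with cotreatment. With glmTreat the cotreatment calls of F11r (adjusted p = 0.269) and Marveld2 (adjusted p = 0.0540) were lost, the latter also in later codes alone (adjusted p = 0.0521). All 7 hemidesmosome genes were tested, and Lama3, a laminin chain of the anchoring matrix, was the single call by edgeR in each arm against vehicle, where DESeq2 called 3 of the 7. The shares of all genes called higher by edgeR were 6.01% with cisplatin and 13.1% with cotreatment. DESeq2 called 1912 of all 16665 genes with cisplatin and 3953 with cotreatment, in either direction. Lama3 rose by 0.78 with cisplatin (adjusted p = 0.0271) and by 1.02 with cotreatment (adjusted p = 0.00192). The cisplatin call of Lama3 was lost without vehicle replicate 2, 3 or 5 or cisplatin replicate 2 (adjusted p up to 0.0847), in later codes alone (adjusted p = 0.0570) and with glmTreat (adjusted p = 0.191).

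Of 8 tested regulators of the epithelial state (16 listed, 15 in the table), Snai2, a repressor of epithelial genes, was called higher in both cisplatin arms. It rose by 0.59 on the log2 scale with cisplatin (edgeR adjusted p = 0.000942) and by 0.71 with cotreatment (adjusted p = 4.49e-05). Klf4, a factor of epithelial differentiation, rose by 0.55 with cotreatment (adjusted p = 0.00314). With glmTreat the cisplatin call of Snai2 (adjusted p = 0.0703) and the cotreatment call of Klf4 (adjusted p = 0.113) were lost. Against vehicle, 1 of the 8 was called higher with cisplatin and 2 with cotreatment, and 0 lower, beside 6.01% and 13.1% of all genes higher and 4.57% and 10.4% lower. The other 7 genes in the table, Trp63 among them, were below the filter.

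**Figure D4:**
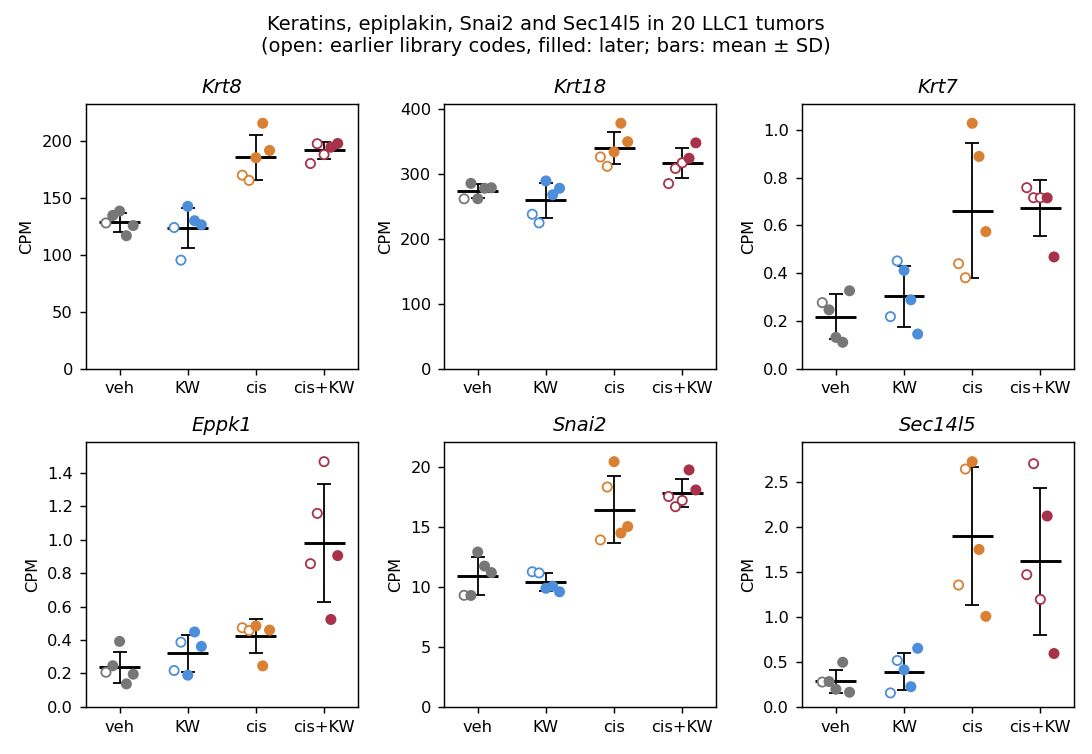
CPM of Krt8, Krt18, Krt7, Eppk1, Snai2 and Sec14l5 in each of 20 tumors, with axes from 0, groups as vehicle (veh), KW6002 (KW), cisplatin (cis) and cotreatment (cis+KW), and bars for the mean ± SD of 5 tumors. Open points are earlier and filled points later library codes. Krt8 separates tumors with cisplatin (165 CPM or more) from those without (142 CPM or less), and Eppk1 separates the cotreated tumors.

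Markers of other cell types were read beside these values. The summed level of the epidermis markers (11 of 12 in the table) was 2.64 to 3.75 CPM in vehicle tumors, 3.17 to 4.84 with KW6002, 2.69 to 8.10 with cisplatin and 2.74 to 5.18 with cotreatment. Its defining keratins Krt5 and Krt14 were at 0 to 2 counts in every tumor. Of the other 9 markers in the table, Sfn, Krt15, Krtdap, Krt10, Dmkn and Trp63 had more raw counts with cisplatin than with vehicle. With cotreatment they did not share a direction, and these counts are not scaled for library totals. Of these, Sfn, Krt10 and Dmkn were tested, too few to describe the list by its calls. Their median log2 difference from vehicle was 0.47 with cisplatin and -0.08 with cotreatment, beside 0.00 and -0.02 over all tested genes. Summed over the vehicle, KW6002, cisplatin and cotreated tumors in turn, Sfn had 139, 174, 211 and 227 counts, Krt15 had 6, 8, 18 and 25, and Krtdap had 3, 12, 20 and 21, of which 14 of the 20 came from 1 cisplatin tumor. Krt10 had 202, 175, 218 and 195 counts, Dmkn 153, 201, 259 and 159, and Trp63 31, 19, 41 and 31, while Lor, Flg and Dsg1a had 0 to 2 per tumor. The sum of the simple epithelium markers (7 of 8 in the table) was 393 to 427 CPM with vehicle, 325 to 436 with KW6002, 481 to 600.1 with cisplatin and 468 to 550 with cotreatment. Krt8 and Krt18 made up nearly all of that sum, and Epcam, a defining marker, had 0 to 5 counts per tumor. Elf3, Cldn7, Krt19 and Cdh1 did not share their rise in both arms. With vehicle, cisplatin and cotreatment in turn, mean CPM was 0.574, 0.455 and 0.427 for Elf3 and 0.0937, 0.0870 and 0.0670 for Cldn7. Krt19 had 2.42, 4.14 and 2.29 CPM, so its mean was higher with cisplatin, where single tumors ranged widely from 1.36 to 8.96 CPM. Cdh1 had 1.91, 1.86 and 2.16 CPM. Msln, which marks mesothelium and some tumors, went from 27.0 ± 7.84 CPM to 89.4 ± 18.0 with cisplatin and 107 ± 17.4 with cotreatment (SD, n = 5), and made up nearly all of the mesothelium sum. Of the other 3 mesothelium markers, Upk3b and Lrrn4 had 0 to 5 counts per tumor, and Wt1 had 61 counts over the cisplatin tumors, 27 over the cotreated and 5 over the vehicle tumors. All 5 endothelium markers were called lower in both cisplatin arms, beside 4.57% of all genes with cisplatin and 10.4% with cotreatment, with sums of 129 to 194 CPM with vehicle and 62.0 to 101 CPM over the 2 arms. The part of these cells in the values of Ppl, the keratins and Pkp2 was not tested. In whole tumors, fewer cells of a type and less RNA per cell cannot be told apart.

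The levels of Ppl were also compared with those of 12743 genes with a mean of at least 50 counts. Of the other members only Jup, Pkp2 and Pkp3 reached that mean, and the rise for which Ppl was chosen enters every value. On the log2 scale over the 20 tumors, the highest Pearson correlations with Ppl were those of Fmo4 (0.98), Pik3ip1 (0.98), Per2 (0.97), Itm2b (0.97) and Aox1 (0.97). Fmo4 encodes a flavin monooxygenase, Pik3ip1 an inhibitor of PI3 kinase, Per2 a circadian clock repressor, Itm2b a membrane protein and Aox1 an aldehyde oxidase. Krt8 ranked at 99 (0.93), Krt18 at 786 (0.80), Pkp3 at 2063 (0.62), Jup at 4056 (0.30) and Pkp2 at 8597 (-0.39). All points share the 4 groups, so these values mostly describe differences between groups and are given with no test. Fmo4, the closest, went from 2.76 ± 0.466 CPM with vehicle to 12.3 ± 4.79 with cisplatin and 25.7 ± 9.64 with cotreatment (SD, n = 5).

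The closest neighbour upstream of Ppl moved too. Sec14l5, which encodes a lipid-binding protein of the SEC14 family, is transcribed from the plus strand with a start 14688 bases from that of Ppl (chr16:5147109-5187271). It was singled out after its values were seen, and it passed the low-count filter only with its counts in the cisplatin arms. The p values below carry both selections. It had 8, 8, 6, 18 and 5 counts in vehicle tumors and 5, 16, 13, 7 and 18 with KW6002, and 40, 104, 90, 57 and 35 with cisplatin and 60, 98, 35, 77 and 19 with cotreatment. Cisplatin tumors lay above all vehicle and KW6002 tumors, and cotreatment replicate 5, at 0.593 CPM, was the only cotreated tumor below the highest KW6002 tumor, at 0.651 CPM. Sec14l5 rose by 2.71 on the log2 scale with cisplatin (SE 0.43, edgeR adjusted p = 0.000269) and by 2.49 with cotreatment (SE 0.43, adjusted p = 0.000169) against vehicle. Unlike Ppl, its mean was not higher with cotreatment (1.61 ± 0.818 CPM) than with cisplatin (1.89 ± 0.766 CPM), and the difference of -0.23 was not called (adjusted p = 0.744).

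Of 17 genes within 150 kb of Ppl, 14 were tested, and with cisplatin Sec14l5 was the single call, beside 6.01% of all genes higher and 4.57% lower. With cotreatment 4 were called, where 13.1% of all genes were called higher and 10.4% lower, namely Sec14l5 and Gm15983 (0.63, edgeR adjusted p = 0.0412) higher and Nagpa (-0.35, adjusted p = 0.0198) and Eef2kmt (-0.39, adjusted p = 8.68e-05) lower. Ubn1, whose annotated end lies 2 bases from that of Ppl on the other strand, differed by 0.08 with cisplatin (adjusted p = 0.271) and 0.18 with cotreatment (adjusted p = 0.00991), below the fold limit. Pkp2 lies on the same chromosome, 11.1 Mb away, and did not rise.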

How the data were processed

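The deposited file holds raw counts per Ensembl gene, and the authors made it with bcl2fastq 2.17.1.14, STAR on mm10, uniquely aligned reads only, and HTSeq 0.6.1p1. Reads shared by near-identical genes were thus not counted. The strand option is not given in the sources used here. Symbols, positions and exon lengths came from GENCODE M21 (GRCm38), which matched 35142 of 35226 genes.

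Genes were tested with edgeR 4.0.16 in R 4.3.3 (TMM scaling, filterByExpr, robust quasi-likelihood fit of 4 group means to all 20 tumors, two-sided), and 16665 genes with 99.9% of counts were kept. Intervals are 95%. CPM used TMM-scaled totals. Cells were injected into 1 flank and mice were assigned to groups, so each tumor was taken as a separate mouse. The title of vehicle replicate 1 differs in form from the other vehicle titles. PCR copies were not removed, so floors cover counting error only.

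The 9 members, the lists and the markers were chosen with earlier results of these data known. At most 5 genes per list were named, those called with cisplatin or cotreatment against vehicle, ordered by fold change, and other genes of the list where fewer were called. Calls that were the only ones of a list and genes near Ppl were added after seeing values. Marker lists of macrophages, T and NK cells, fibroblasts, skeletal muscle, adipocytes and cardiomyocytes were also summed. The alternatives were RLE and upper quartile scaling, DESeq2 1.42.0, other filters and fold limits, a replicate block, the library code range as a term or later codes alone, only the groups compared, and each tumor left out. The earlier codes alone were added after seeing the data.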

Additional observations from a re-analysis of the deposited data

Results flagged for a closer look

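Among 22 genes examined in 4 groups of 5 tumors, 6 values at the edge of a group stood further from the rest than Dixon's limit for 5 samples (0.71 of the range). For normally distributed values chance alone flags about 1 group in 20 tested, a rate that need not hold for genes with few counts. A group with 1 tumor above 0 counts, such as Dsg2 with vehicle, is flagged by construction. In all 85 groups were tested, and 3 in which every tumor was at 0 could not be. Pkp2 in cisplatin replicate 5 was high at 57.4 CPM, with the other 4 tumors at 25.3 to 33.8 CPM. Dsg2 in vehicle replicate 3 was high at 0.0653 CPM (2 counts), with the others at 0.0 CPM. Dsg2 in KW6002 replicate 1 was high at 0.529 CPM, with the others at 0.0 to 0.0362 CPM. Eppk1 in cisplatin replicate 4 was low at 0.245 CPM, beside 0.457 to 0.484 CPM. Krt7 in cotreatment replicate 5 was low at 0.468 CPM, beside 0.716 to 0.758 CPM. Klf4 in vehicle replicate 2 was high at 15.2 CPM, beside 10.3 to 11.6 CPM.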

How the results depend on the processing

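Counts of called members below include Ppl, which was chosen on its cisplatin values, so only the part of the other members carries information. The count in cotreatment against vehicle, 2 (Ppl and Pkp2), became 1 through the loss of Pkp2 with a test against the fold limit itself (glmTreat) and with later library codes alone. Against KW6002 they numbered 1, not 2, without the low-count filter, with glmTreat and with later codes alone. Against cisplatin they numbered 0, not 2, under those 3 settings and with only the groups compared, and 1 (Pkp2) with earlier codes alone. Leaving out each tumor gave 2 to 3 members against vehicle, 1 to 2 against KW6002 and 0 to 2 against cisplatin, with 0 called without cotreatment replicate 2 or 3. The cause was not tested.

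The direction turned in 7 fitted values, all uncalled. Dsc2 in cotreatment against cisplatin is counted under both later codes alone and the replicate block. With later codes alone, Jup was at -0.0669 (cisplatin) and -0.0635 (cotreatment) against vehicle, Dsc2 at 0.43 (cotreatment against KW6002) and 0.41 (against cisplatin), and Pkp3 at -0.0134 (against cisplatin) and -0.11 (interaction). With the replicate block, Dsc2 was at 0.0052 in cotreatment against cisplatin, and no member's call changed, while the cisplatin call of Lama3 was lost (edgeR adjusted p = 0.0598). Same-numbered tumors did not deviate together (r -0.392 to 0.391, median -0.025, 12 of 30 pairs over 0.1, beside 39 of 120 differently numbered pairs), so the numbers were not taken as pairs.

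Leaving out 1 tumor turned 9 uncalled values, which ranged as follows. Jup ran from -0.0523 to 0.29 (cisplatin) and -0.00357 to 0.34 (cotreatment) against vehicle, -0.25 to 0.0948 (KW6002 against vehicle), -0.0286 to 0.12 (cotreatment against cisplatin) and -0.0451 to 0.29 (interaction). Dsc2 ran from -0.34 to 0.14 (cotreatment against KW6002) and -0.22 to 0.24 (against cisplatin), Pkp2 from -0.20 to 0.16 (cisplatin against vehicle) and Pkp3 from -0.0738 to 0.0916 (KW6002 against vehicle). DESeq2 called 3 hemidesmosome genes, not 1, in each arm against vehicle, and 258 genes, not 11, in the interaction. Against vehicle it called 1912 of all genes with cisplatin and 3953 with cotreatment, beside 1762 and 3914 by edgeR. With later codes alone, 4 vehicle and 2 cotreated tumors remained. Depth limits Dsp, Evpl, Pkp1, Dsg2 and Dsc2.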

Other observations

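Zeb1, a repressor of E-cadherin, was called higher in cotreated than in cisplatin tumors, by 0.34 on the log2 scale (edgeR adjusted p = 0.00593), and was chosen after its values were seen. The summed level of 6 markers of T and NK cells was 1.68 to 6.50 CPM with vehicle, 3.13 to 22.0 CPM with KW6002, 1.72 to 7.21 CPM with cisplatin and 1.71 to 3.55 CPM with cotreatment, and the KW6002 median, 6.11 CPM, lay close to that of vehicle, 6.29 CPM. In cotreatment against KW6002, 5 of these 6 markers were called lower and 0 higher by edgeR, with a median log2 difference of -2.36. Over all genes 10.7% were called lower and 12.6% higher there. The part of these cells in the Pkp2, Eppk1 and Tgm1 values of that comparison was not tested. Macrophage marker sums were 1883 to 2902 CPM with vehicle, 2714 to 3487 CPM with cisplatin and 2143 to 3221 CPM with cotreatment, and fibroblast sums were 9782 to 12804, 8542 to 14228 and 10724 to 12210 CPM. Skeletal muscle sums varied widely inside groups, at 4.35 to 53.6, 2.82 to 234 and 3.03 to 988 CPM, as did adipocyte sums, at 0.110 to 64.0, 0.203 to 1.72 and 0.250 to 9.84 CPM. Cardiomyocyte sums were 1.54 to 2.80, 1.37 to 2.54 and 1.63 to 2.73 CPM.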
